A study of Caenorhabditis elegans with 22 samples.

Results

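The regions described here are the outermost 200 kb at both ends of Caenorhabditis elegans chromosomes II, III, IV, V and X. They were chosen by position alone, as the 1 kb bins within 200 kb of an end on build ce11. This gave 2005 of the 100275 nuclear bins, in 10 ends of 200 or 201 bins. The assay was DamID, in which the bacterial adenine methyltransferase Dam marks GATC sites near the protein that carries it, and the deposited tables count mapped reads of such sites in L1 larvae.

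A pair of Dam fusions was compared, and per the labels both were expressed only in the intestine, after recombination by FLP under the elt-2 promoter. EMR-1 is emerin, a LEM-domain protein of the inner nuclear membrane, so Dam::EMR-1 marks DNA that comes near the membrane. GFP::Dam is free in the nucleus and marks DNA that the enzyme can reach. Both sit under the hsp-16.41 promoter, which was not heat shocked in any group, so all groups share trace expression. The wild-type groups are strains GW1377 (Dam::EMR-1) and GW1378 (GFP::Dam), fed bacteria that make a control double-stranded RNA. The cec-4 groups are strains GW1379 and GW1380, which carry the deletion cec-4(ok3124) and got the same control food. The mrg-1 RNAi groups are the wild-type strains fed bacteria that make mrg-1 double-stranded RNA, and the groups called the combination here are the cec-4 strains on that food. Mothers were fed for 66 h at 20 °C, and their starved L1 offspring were then given Dam-free bacteria in liquid for 2.5 h. Per the labels, each library is a pool of larvae, all strains of a replicate number were grown in parallel, and mrg-1 RNAi was judged by partial sterility of the next generation. Each group has 3 replicates, but both groups of single mrg-1 RNAi have only replicates 2 and 3. Libraries of both fusions that share a background and a replicate number form a pair, and there are 11 pairs.

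Worm chromosome arms carry most of the repeats and most of the methylation of histone H3 on lysine 9, and they lie closer to the nuclear envelope than chromosome centres do. CEC-4 is a chromodomain protein of the envelope that binds methylated H3K9 and holds such chromatin there. MRG-1 is a chromodomain protein that binds methylated H3K36 on active chromatin. The design asks how the loss of either or both alters contact with emerin. Telomeres are themselves tethered to the envelope in worm embryos, through the telomere protein POT-1 and the membrane protein SUN-1. The outermost 200 kb of each chromosome adjoin that anchor.

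Libraries held 2246126 to 18737218 nuclear reads, and the wild-type Dam::EMR-1 libraries were the shallowest group, at 2246126 to 3090296. The 10 ends together took 2.49% to 3.06% of the reads of a Dam::EMR-1 library and 1.64% to 1.95% of the reads of a GFP::Dam library, so the groups did not overlap. A single end held 1612 to 110800 reads per library. A 10 kb window of an end held a median of 165.5 to 569.5 reads, and a 1 kb bin a median of 0 to 15. Ratios are therefore given for whole ends and for 10 kb windows.

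Some of the terminal DNA had no reads at all. Of the 2005 bins, 402 (20.0%) had no read in any of the 22 libraries, against 14.9% of all nuclear bins. Chromosome IV left stood out: its first read lay 47 kb from the end, and 70 of its 200 bins were empty. That stretch holds 7 protein-coding genes, among them frm-5.2, which encodes a FERM-domain protein, and the channel genes trpl-3 and trpl-4, so these genes were not measured. X left had 79 of 200 bins without reads, and its first read lay 7 kb from the end. At the other 8 ends reads began within 1.83 kb of the end, and 9.95% to 24.9% of bins were empty. Whether repeats or the lack of GATC sites account for the empty bins was not tested.

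In wild type most ends carried more Dam::EMR-1 than GFP::Dam signal: the ratio was higher than 1 at 7 of the 10 ends and lower at 1. The test was edgeR's quasi-likelihood test over 200 kb windows that tile the whole genome, with Benjamini-Hochberg adjustment over all 508 windows and a threshold of 0.05. Of all windows, 38.6% were called higher and 44.3% lower. The median of the 10 ends was 0.81 on the log2 scale, and that of all windows was -0.16. The highest end was X left, at a log2 ratio of 2.02 ± 0.26 (SE), 4.04-fold (adjusted p = 2.38e-07). III left followed at 1.48 ± 0.18 (adjusted p = 1.21e-07), and V left, II left, II right, IV left and V right were called at 1.04, 0.87, 0.83, 0.79 and 0.57. X right was lower, at -0.95 ± 0.21 (adjusted p = 0.000244). III right, at -0.29 ± 0.26, and IV right, at 0.10 ± 0.32, were not called. In that order, neighbouring ends between II left and IV left differ by less than their SE.

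Single libraries show the same order in CPM, the reads of a region per 1000000 nuclear reads. At X left the wild-type Dam::EMR-1 libraries held 1555, 1170 and 1399 CPM and the GFP::Dam libraries 196, 411 and 360. Every Dam::EMR-1 value was above every GFP::Dam value, and the 3 pairs gave log2 ratios of 2.99, 1.51 and 1.96. GFP::Dam was scarce there, since the other 9 ends held 877 to 5195 CPM in the same libraries. At III left Dam::EMR-1 held 5260, 3924 and 3750 CPM and GFP::Dam 1263, 1665 and 1377, with pair ratios of 2.06, 1.24 and 1.44. At X right the order was the opposite, with 1223, 1025 and 1378 CPM in Dam::EMR-1 against 2207, 2332 and 1898 in GFP::Dam. The groups did not overlap at either of these ends. At III right Dam::EMR-1 held 3657, 4104 and 4100 CPM and GFP::Dam 3957, 4277 and 5195, so the groups overlapped. At IV right they overlapped as well, since pair 1 gave a ratio of 0.99 and pairs 2 and 3 gave -0.26 and -0.11. Pair 2 was the lowest of the 3 at 9 of the 10 ends in wild type and at 9 in cec-4, and at 5 in the combination.

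**Figure D1:**
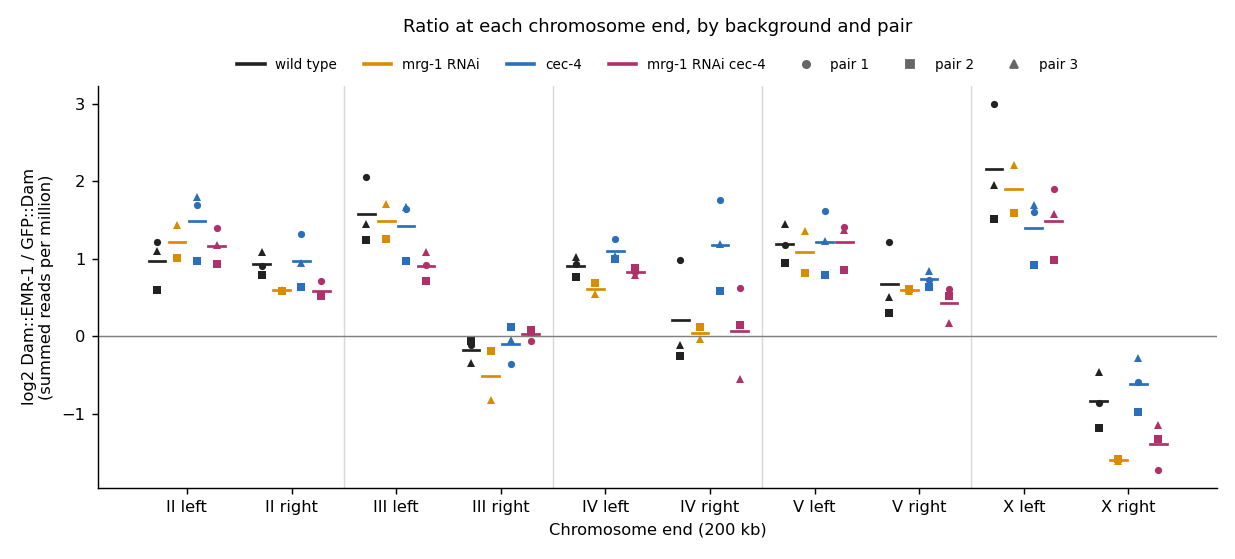
Ratio of Dam::EMR-1 to GFP::Dam at each of the 10 chromosome ends (horizontal axis), as the log2 ratio of CPM over the whole end (vertical axis). Each symbol is 1 pair of libraries of the same replicate number, colours are backgrounds and short bars are means over 3 pairs (2 for mrg-1 RNAi). X left lies highest in wild type, at 1.51 to 2.99, X right lies below 0 in all 11 pairs, and III right and IV right lie around 0 in wild type.

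The 2 ends of a chromosome were not alike. Over the 11 pairs, the left end of X was higher than the right by 2.78 on average (1.89 to 3.84), and the left end of III was higher than the right by 1.49 (0.64 to 2.53). Left exceeded right in 11 of 11 pairs on both. On V, IV and II the left end was higher by 0.57, 0.48 and 0.42 on average, in 10, 8 and 10 of 11 pairs. Among the 90 windows of X, X left ranked 2 and X right ranked 32, and among all 508 windows X left ranked 19.

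The ends were next compared with the rest of the arm they belong to, after each chromosome was cut into 3 stretches of equal length, a centre flanked by 2 arms. To get a region's pair value, a pseudocount of 1 was added to the CPM of each 10 kb window, and log2 ratios were averaged over its windows. A window without reads in either library of a pair thus entered as a log2 ratio of 0, among them the unread windows of IV left. Here subtracting the arm within a pair removes the scaling of the libraries. All p-values here are two-sided exact sign-flip permutations of the 11 pairs, 1 for each of the 10 ends and unadjusted, and 0.000977 is the smallest they can give. Pairs of different backgrounds and of the same number share growth, so the pairs are not fully independent. The test pools the backgrounds, so its mean does not describe an end whose sign differs between them. X left exceeded the rest of its arm by 2.30 ± 0.54 (SD, n = 11, 11 of 11 pairs, p = 0.000977), and III left by 0.94 ± 0.22 (11 of 11 pairs, p = 0.000977). The ratio at these 2 ends was thus above that of the arm behind them in every background. Over all 11 pairs II left was above its arm by 0.32 (8 of 11 pairs, permutation p = 0.0264). At II left every wild-type pair was below the arm, and every pair of the other backgrounds was above it. IV left was above its arm by 0.17 (8 of 11, permutation p = 0.0195). This became 0.36 in 11 of 11 pairs once windows of under 10 reads on average were left out. By contrast, III right fell below its arm by 1.05 and V right by 0.51, in 11 of 11 pairs each (permutation p = 0.000977). IV right was below its arm by a mean of -0.58 in 9 of 11 pairs (permutation p = 0.00391), and both pairs above it were of cec-4. The remaining 3 ends, II right, V left and X right, differed from their arms by 0.12, 0.04 and -0.15, and their permutation p-values were 0.282, 0.535 and 0.111. II right was above its arm in every wild-type pair and below it in every pair of the combination. X right was below its arm in every cec-4 and mrg-1 RNAi pair, but on both sides in wild type and in the combination. From summed reads V left was above its arm by 0.38 in 10 of 11 pairs, and IV right was below by a mean of -0.34 with 4 of 11 pairs above.

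At most autosome ends the ratio rose just inside the terminal 200 kb. Of the 8 autosome ends, 6 had a higher ratio in the adjoining 200 kb than in the end itself in wild type, 6 after mrg-1 RNAi, 5 in the cec-4 deletion and 6 in the combination. The mean over the 8 ends was 0.67 in the outermost 200 kb, 1.41 in the next and 1.51 between 400 and 600 kb. In the windows next to them, II left, II right, V left and V right reached 1.98, 2.06, 1.91 and 2.26. In pair values, II left was below its neighbour by a mean of -1.12, II right by -1.17, III right by -1.73, IV right by -0.77, V left by -0.89 and V right by -1.64, and none of the 11 pairs went the other way at any of the 6. IV left was higher than its neighbour by 0.82, X left by 0.59 and X right by 0.60, in 11 of 11 pairs each, while III left differed by -0.16 and was higher in 2 of 11. For III left the fit has the opposite sign, with 1.48 in the end and 0.85 in its neighbour in wild type, and the end was the higher in the fit of each background. An excess of the ends over their arms therefore depends on what counts as arm. The mean over the 10 ends in wild type was 0.20 against arms cut as 1 of 3 lengths, -0.21 against arms cut as 1 of 4 lengths and -0.49 against the adjoining 200 kb.

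**Figure D2:**
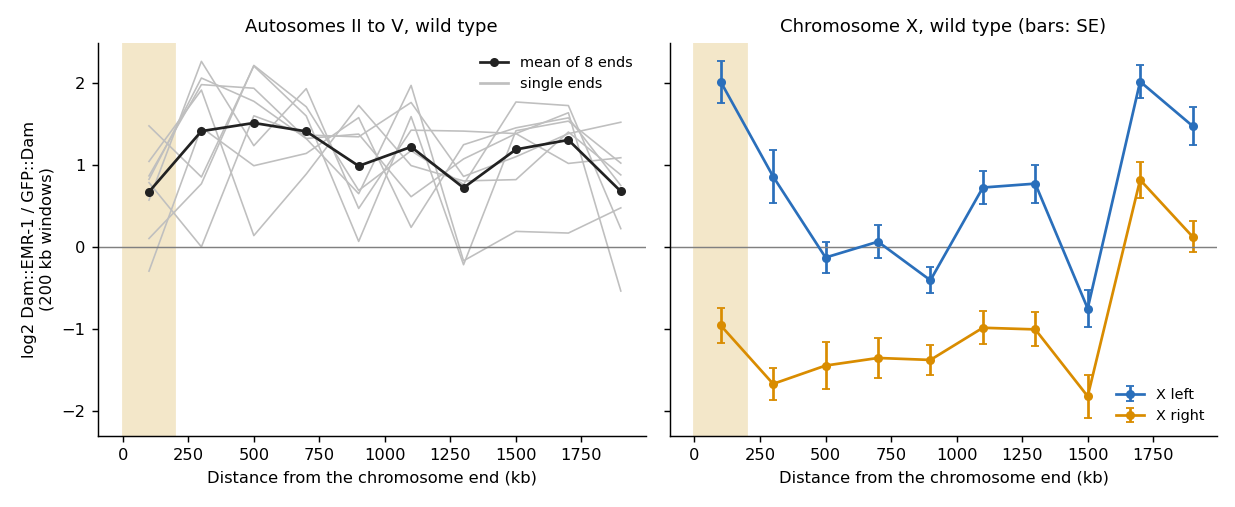
Wild-type log2 ratio of Dam::EMR-1 to GFP::Dam in 200 kb windows (vertical axis) by the distance of the window's centre from the chromosome end in kb (horizontal axis). The left panel shows the 8 ends of chromosomes II to V in grey and their mean in black. The right panel shows both ends of X with SE bars, and shading marks the outermost 200 kb. The autosome mean is 0.67 at the end and 1.41 in the next window, whereas X left falls from 2.02 to 0.86.

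Within the terminal 200 kb the ratio was uneven. At 10 kb, 196 of the 200 windows of the ends had enough reads to be tested and the other 4, all of IV left, had none. In wild type 66 windows (33.7% of those tested) were called higher, against 25.6% of the 9965 windows tested over the genome. The called lower windows were 21 (10.7%), against 28.7% of the genome. In 1 kb bins the balance turned: of 1344 bins tested 89 were called higher (6.62%) and 142 lower (10.6%), against 4.09% and 21.5% of all bins tested. The outermost 50 kb had a mean pair ratio of 0.32 ± 0.34 (SD, n = 3) in wild type, and the bands of 50 to 100, 100 to 150 and 150 to 200 kb had 0.78 ± 0.43, 0.94 ± 0.63 and 0.57 ± 0.37. Within pairs, the outermost 50 kb were below each of the 3 other bands in 11 of 11 pairs, by means of -0.36, -0.59 and -0.26. The outermost band averages 46 windows, because the 4 unread windows of IV left are left out, and each other band averages 50. From the end inward, 15 of 46, 14 of 50, 18 of 50 and 19 of 50 tested windows were called higher. In the same order 5, 5, 3 and 8 were called lower. The split between outer and inner part was steep at some ends: over the outer 100 kb alone, V left had a log2 ratio of -0.05 and II right of 0.03, neither called, and X right of -0.19.

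**Figure D3:**
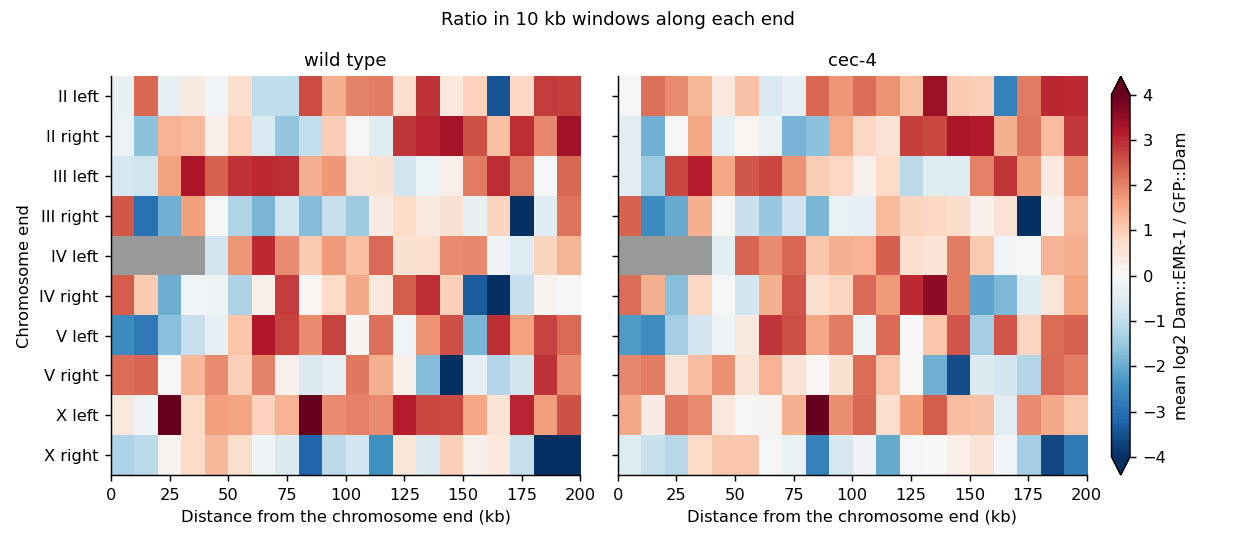
Mean log2 ratio of Dam::EMR-1 to GFP::Dam over the pairs of wild type (left panel, n = 3) and of cec-4 (right panel, n = 3) in 10 kb windows. The horizontal axis is the distance from the chromosome end in kb, each row is 1 end, colours run from -4 to 4 and grey marks windows without reads. V left starts with lower windows and turns higher from about 60 kb inward, IV left has no reads in its first 4 windows, and single strongly lower windows interrupt III right, IV right, V right and X right.

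The count of called windows also differed between ends, though not in the order of the whole-end ratios. Each end had 20 windows tested, except IV left with 16. Over the genome 25.6% of the windows tested were called higher and 28.7% lower. III left had 11 windows called higher and 0 lower, V left 10 higher and 4 lower, and X left 9 higher and 0 lower. X right had 1 higher and 4 lower, and III right 3 higher and 6 lower. The other 5 ends had 5 to 7 higher and 0 to 3 lower.

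The window called with the highest ratio of each end is described by the gene that covers most of it. At X left this was a window 20 kb from the end without a protein-coding gene (chrX:20001-30000), at a log2 ratio of 4.50 ± 0.74 (SE, adjusted p = 0.000148). It held 295, 139 and 114 reads in the Dam::EMR-1 libraries and 22, 20 and 15 in the deeper GFP::Dam libraries. The next highest were T05C7.7 of IV left (3.40), Y53F4B.20 of II right (3.28) and clp-10 of III left (3.14), which encodes a calpain-family protease. The window of daam-1 at V left, a formin that builds actin filaments, had 3.05 and also holds most of cyp-29A3, a cytochrome P450 gene. The window of clec-199 at IV right, which encodes a C-type lectin domain protein, had 3.02, from pairs of 5.37, 1.39 and 2.05, and 2.14 without Dam::EMR-1 replicate 1. That of dnj-25 at V right, the auxilin homologue that uncoats clathrin vesicles, had 2.74. T01D1.8 of II left had 2.72. The highest at X right, T23E7.2, reached 1.15 ± 0.42, a call that was lost in 3 of 6 fits that left out a wild-type library.

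The lowest window of III right (chrIII:13603001-13613000), 170 kb from the end, is covered by shpk-1, a sedoheptulokinase gene. It held 27, 164 and 7 reads in Dam::EMR-1 against 4668, 1217 and 4744 in GFP::Dam, and its log2 ratio was -4.45 ± 1.13 (adjusted p = 0.00306). The same window holds act-5, the actin gene of intestinal microvilli, which is named here after its value was seen. At V right the lowest window belongs to hif-1, the hypoxia-inducible transcription factor, at -3.83 ± 1.00, with 4, 141 and 19 reads in Dam::EMR-1 against 1333, 1290 and 3661 in GFP::Dam. In both windows Dam::EMR-1 replicate 2 held the most reads of the 3, and without it the ratios were -6.41 and -5.97. At X right it was sup-10, a subunit of a muscle potassium channel complex, at -4.92 ± 0.82, which became -3.74 without GFP::Dam replicate 1. At II left it was etr-1, a CELF-family RNA-binding protein gene, at -3.42 ± 0.65, which became -4.62 without Dam::EMR-1 replicate 2 and -2.80 without GFP::Dam replicate 1. These are windows of many GFP::Dam reads, which the free enzyme reached and the tethered enzyme did not mark to the same degree.

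The lowest fitted ratio was in the window of C49C3.9 at IV right, where no Dam::EMR-1 read fell in any wild-type library against 40, 109 and 64 GFP::Dam reads. Set against a floor of 3 counts over the group, GFP::Dam was at least 24.1-fold higher in CPM. In the combination Dam::EMR-1 again had 0 reads and the bound was 48.4-fold. In cec-4 Dam::EMR-1 held 0, 5 and 3 reads, and in mrg-1 RNAi 6 and 2. At V left the lowest window, 10 kb from the end, had no protein-coding gene and a ratio of -3.24 ± 0.58, or -2.39 without GFP::Dam replicate 1. At II right it was spsb-1, a gene of the SPRY-domain and SOCS-box family, at -1.79 ± 0.69, a call lost in 5 of 6 fits that left out a library. III left, IV left and X left had no window called lower.

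The genes nearest to the telomeres fell on both sides. The outermost window of III right had a ratio of 2.26 ± 0.58 (adjusted p = 0.00315). It is named for mdt-29, which encodes a Mediator subunit, and it also holds the outermost gene of that end, pot-3, a homologue of the telomere-binding protein POT1. The outermost windows of IV right, with the astacin metalloprotease gene nas-6, and of V right, with pbo-5, a proton-gated channel of the defecation motor programme, were also higher, at 2.12 ± 0.51 and 2.12 ± 0.64. The window of idpp-2, the outermost gene of V left, was lower, at -2.04 ± 0.72 (adjusted p = 0.0213). The outermost genes of II left, II right, III left and X right are 2L52.1, rga-9, fbxa-6 and cTel55X.1, and their windows had -0.66, -0.46, -0.98 and -1.34 and were not called. At X left the outermost gene, Y73B3A.1, begins 42631 bp from the end, and its window had 1.44 ± 0.58. frm-5.2, the outermost gene of IV left, had no reads.

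The ends contain 343 of the 19971 nuclear protein-coding genes, with 15 at X left, 20 at X right and 25 to 54 at the others. By the window each gene overlaps most, 106 of the 343 lay in a window called higher in wild type, 35 in one called lower, 195 in one not called and 7 in one not tested. Of all 10 kb windows tested over the genome, 25.6% were called higher and 28.7% lower. The same shares per gene or per gene family over the genome are not given here. The gene counts in this paragraph are therefore values of the ends alone. By gene family the ends were mixed. F-box, MATH and BTB genes made up 2.92% of the genes of the ends against 2.06% of all genes, C-type lectins 1.75% against 1.20%, and ugt, cyp and gst genes of detoxification 2.92% against 0.926%. Collagens made up 0.875% against 0.781%, and nuclear hormone receptors 0.875% against 1.35%. Chemoreceptor genes made up 2.04% against 6.55%, and 4 of the 7 lay in windows called higher, among them srxa-6 (2.74) and srh-82 (2.43). All 3 collagen genes, taken by their col symbols, lay in windows called higher: col-68, col-88 and col-99, at 1.81, 2.15 and 1.84. Of 6 C-type lectin genes 3 lay in windows called higher and 0 in lower ones. Of 10 F-box, MATH and BTB genes 2 did, btb-5 (2.93) and fbxa-16 (3.20), while fbxb-81 to fbxb-84 share 1 window of 0.41 that was not called. The window of btb-5 also holds pck-1, the gluconeogenic enzyme PEP carboxykinase, named after its value was seen. The 9 glutathione S-transferase genes at II right, gst-26 to gst-39, lay in windows of -0.58, 0.15 and 0.95, none of them called. Of 3 nuclear hormone receptor genes 1 lay in a window called lower, nhr-1 at X right (-3.87). Genes that share a window share its value.

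In the 3 other backgrounds most ends were again called higher. After mrg-1 RNAi 6 ends were called higher and 1 lower, where 35.4% and 40.4% of all 200 kb windows were. In cec-4 8 ends were called higher and 1 lower, against 36.6% and 35.4% of all windows. In the combination 6 were called higher and 1 lower, against 35.2% and 36% of all windows. X right was the lower end in each, at -1.66, -0.78 and -1.53. V right was not called in mrg-1 RNAi (0.55, adjusted p = 0.0652) or in the combination (0.31), and IV right was called in cec-4 alone (0.88 ± 0.32, adjusted p = 0.0174). With the replicate number as a block, V right (adjusted p = 0.0218) and III right (-0.60 in the unblocked fit, adjusted p = 0.0406 when blocked) were called in mrg-1 RNAi as well. At 10 kb, 53 of the 66 windows called higher in wild type were called higher in cec-4, 49 with mrg-1 RNAi and 54 in the combination, where 21.3%, 18.6% and 23.7% of the windows of the genome were. These are 80.3%, 74.2% and 81.8% of the 66, and of all windows of the genome called higher in wild type 72.3%, 66.9% and 74.9% were called so again. Of the 21 lower windows 19, 14 and 20 were called lower, where 20.1%, 21% and 22.9% of the genome were. These are 90.5%, 66.7% and 95.2% of the 21, against 63.4%, 68.4% and 68.6% of all windows called lower in wild type. None of these windows was called in the opposite direction. In all 4 backgrounds 45 windows of the ends were called higher (23.0% of those tested) and 13 lower (6.63%), against 14.3% and 14.2% over the genome.

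Loss of CEC-4 did not move any end past the threshold in this fit. The difference in log2 ratio between cec-4 and wild type was called at 0 of the 10 ends, where 18.1% of all 200 kb windows were called higher and 5.12% lower, and 1 end, X left, had an unadjusted p under 0.05. The differences ran from -0.79 to 0.77, 5 above 0 and 5 below, with SEs of 0.22 to 0.45. X left had the lowest, -0.79 ± 0.35 (adjusted p = 0.101), from pair ratios of 2.99, 1.51 and 1.96 in wild type to 1.60, 0.92 and 1.69 in cec-4, so that the groups overlapped. With the replicate number as a block the same end was called, at -0.80 (adjusted p = 0.0399), and DESeq2 called it at -0.90 (adjusted p = 0.0436). IV right had the highest, 0.77 ± 0.45 (adjusted p = 0.202). Its pairs were at 0.99, -0.26 and -0.11 in wild type and 1.76, 0.59 and 1.20 in cec-4. In the authors' deposited log2 ratios, averaged over 1 kb bins not listed as 0, each end was lower in cec-4 than in wild type. The rest of each arm was lower there as well. IV right fell from 1.09 to 0.70 in those ratios. GFP::Dam cec-4 replicate 2 held 1456 CPM at that end where replicates 1 and 3 held 381 and 544, and without that library the end was called, at 1.29. The test had little power for changes of this size: in simulated data it recovered 4 of 14 windows of 200 kb changed by a log2 of 1 and 14 of 14 changed by 2.

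The windows that changed in cec-4 lay in the centres and the rest of the arms, and on chromosome I, where 9 were called higher and 9 lower. In the centres of the 5 chromosomes 66 of 148 windows (44.6%) were called higher and 0 lower, and in the rest of the arms 17 of 274 were called higher and 17 lower (12.4% in all). The mean pair ratio of the 10 ends was 0.64 ± 0.42 (SD, n = 3) in wild type and 0.68 ± 0.21 in cec-4, that of the rest of the arms 0.45 and 0.48, and that of the centres -2.26 and -1.05. The gap between ends and centres was thus 2.90 ± 0.30 in wild type (2.60 to 3.19) and 1.73 ± 0.11 in cec-4 (1.61 to 1.82), with no overlap between pairs. The mean gap between the 10 ends and the rest of the arm was 0.20 ± 0.04 in wild type and 0.20 ± 0.03 in cec-4. Within replicate numbers this mean gap moved by -0.01 to 0.02. From reads summed over each region it was 0.19 ± 0.08 and 0.31 ± 0.09. Single ends moved in opposite directions under this mean. X left had pair values of 2.49, 1.47 and 1.87 in wild type and 1.51, 1.02 and 1.56 in cec-4. The rest of its arm had -0.71, -1.03 and -0.84 in wild type and -0.43, -0.55 and -0.15 in cec-4. Every cec-4 pair thus had a smaller gap there than every wild-type pair. At II left the end lay below its arm in every wild-type pair and above it in every cec-4 pair. The 8 autosome ends were also taken alone, a choice made after their values were seen. Their gap to the rest of the arm was -0.12 ± 0.11 in wild type (-0.22 to -0.0072) and 0.07 ± 0.06 in cec-4 (0.02 to 0.13), without overlap, and from summed reads it was -0.10 ± 0.01 and 0.21 ± 0.04. With 3 pairs against 3 no exact permutation test can pass the threshold. The sign of the change in the ends' own ratio depends on scaling, since it was 0.04 by library size, -0.07 by TMM and -0.35 when each library pair was centred on the genome mean. The gaps are free of that choice.

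**Figure D4:**
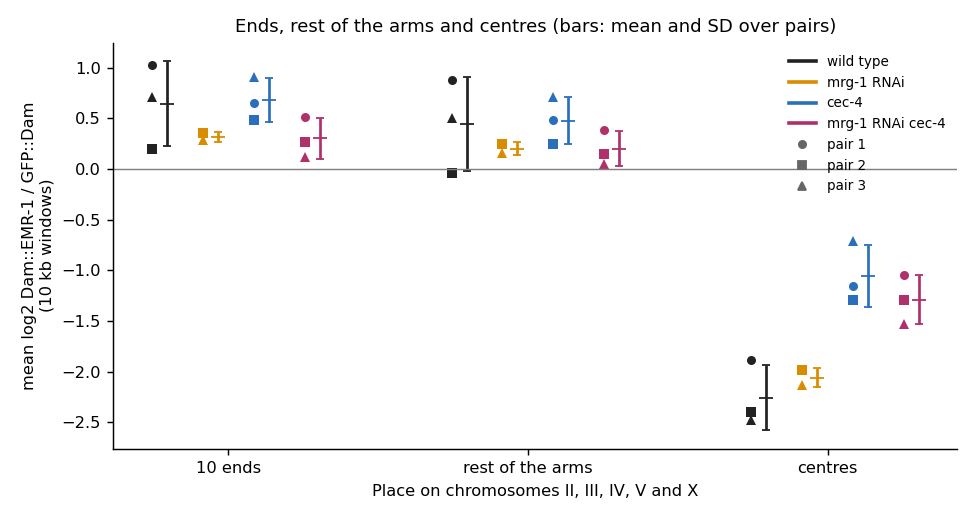
Mean log2 ratio of Dam::EMR-1 to GFP::Dam over 10 kb windows (vertical axis) for the 10 ends, the rest of the arms and the centres of chromosomes II, III, IV, V and X (horizontal axis). Symbols are pairs, colours are backgrounds, and the bars beside them show the mean and SD over 3 pairs (2 for mrg-1 RNAi). The centres lie at -2.26 in wild type and at -1.05 in cec-4, while the ends lie at 0.64 and 0.68.

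For mrg-1 RNAi against wild type edgeR called 0 ends and 0% of the 508 windows, DESeq2 called 0 ends, and 1 end had an unadjusted p under 0.05. That end was X right, at -0.70 ± 0.33 (edgeR adjusted p = 0.561). Its pairs were at -1.58 and -1.61 after mrg-1 RNAi and at -0.85, -1.19 and -0.46 in wild type, without overlap. The mean of the ends was 0.32 ± 0.05 (SD, n = 2), the gap to the rest of the arms 0.12 ± 0.01 and the gap to the centres 2.38 ± 0.05.

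The combination differed from wild type at 1 end. III left was lower by a log2 of -0.72 ± 0.25 (adjusted p = 0.0341), where 8.66% of all windows were called lower and 17.9% higher. Its pair ratios were 0.92, 0.72 and 1.09 in the combination and 2.06, 1.24 and 1.44 in wild type, without overlap. The end was still higher than GFP::Dam in the combination, at 0.76 ± 0.18. The call was lost in 6 of 12 fits that left out 1 library, among them 1 that omitted replicate 1 of wild-type Dam::EMR-1 (-0.57). It was lost as well by library-size scaling (-0.69) or limma on pair values (-0.67). DESeq2 and the replicate block gave it, at adjusted p of 0.0085 and 0.00765. X left (-0.66) and X right (-0.57) were not called. The mean of the ends was 0.30 ± 0.20 (SD, n = 3), the gap to the rest of the arms 0.10 ± 0.03 and the gap to the centres 1.59 ± 0.05. This contrast and those of cec-4 and mrg-1 RNAi share the wild-type libraries. Against cec-4 and against mrg-1 RNAi the combination was called at 0 ends by edgeR and by DESeq2, where 0% and 0.984% of all windows were called by edgeR, and 1 end in each had an unadjusted p under 0.05. The interaction of cec-4 with mrg-1 RNAi was called at 0 ends by either tool, with 0 at an unadjusted p under 0.05, values from -0.82 to 0.53 and a smallest adjusted p of 0.998.

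The parts of the ratio were also tested on their own. In GFP::Dam 0 ends and 0 windows of the genome were called between any background and wild type at 200 kb by edgeR or DESeq2, 0 ends had an unadjusted p under 0.05, and the ends differed by -0.57 to 0.36. In Dam::EMR-1 the combination was lower than wild type at 3 ends, III left (-0.72), X left (-0.76) and X right (-0.52), where 12.6% of all windows were called lower and 30.1% higher. For Dam::EMR-1 edgeR called 0 ends in cec-4, where 32.3% of windows were called, and 0 after mrg-1 RNAi, where 0.787% were. In both, 1 end had an unadjusted p under 0.05 and DESeq2 called 1 end lower.

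At 10 kb, 0 windows of the ends differed in their ratio between backgrounds by edgeR or DESeq2, and edgeR called 0% of the genome. Of the 196 windows 2 to 4 per contrast had an unadjusted p under 0.05. In simulated data the test at 10 kb recovered 0 of 70 windows changed by a log2 of 2 and 25 of 70 changed by 4. Changes of the sizes seen at whole ends were thus not detectable by the test at 10 kb. In Dam::EMR-1 taken alone, edgeR called 0 windows of the ends in cec-4 (0% of the genome) and 0 in the combination (0.331%). DESeq2 called 1 lower in cec-4 and 5 lower in the combination, where it called 0.401% and 2.59% of the genome lower. The 3 windows with the smallest p in each contrast are given as values that were not called. For cec-4 against wild type they were the gene-free window 20 kb from X left (-2.15 ± 0.92), that of C49C3.9 and that of attf-3 at III left (-1.32 ± 0.68), a gene of the AT-hook transcription factor family. The first of these had pair ratios of 5.02, 3.21 and 4.36 in wild type and 1.65 to 2.74 in cec-4. For mrg-1 RNAi they were a window of cgt-2 at X right, a ceramide glucosyltransferase gene (-3.45 ± 1.07), that of mxl-2 at III left, a Max-like transcription factor gene (1.76 ± 0.75), and C49C3.9. For the combination they were fbxb-83 at III left (-2.79 ± 0.93) and fbxa-16 at X left (-2.41 ± 0.89), both F-box genes, and the gene-free window of X left (-2.02 ± 0.92). The other 3 contrasts gave cgt-2, mxl-2 and C49C3.9 again, together with kola-5 at IV right (-2.46 ± 1.05, combination against cec-4) and Y73B3A.1 at X left (1.86 ± 0.81, the same contrast).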

How the data were processed

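DamID reads of 22 libraries were analysed. Per the labels, DNA was cut at methylated GATC with DpnI, ligated to adapters, cut with DpnII and amplified by PCR without molecular identifiers. The authors deposited counts of mapped reads per 1 kb bin of build ce11, raw, and log2 tables of Dam::EMR-1 over GFP::Dam per background, in which replicates are combined. The aligner, and how it placed reads from repeats, is not given in the sources used here. The deposited 10 and 100 kb counts differ from sums of the 1 kb counts by 0.332% and 0.253% of reads, so the 1 kb counts were summed into windows of 10 and 200 kb laid from both ends of each chromosome.

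One edgeR 4.0.16 fit per window size (R 4.3.3, TMM, filterByExpr, quasi-likelihood) covered all 22 libraries in 8 groups and all windows including chromosome I, with Benjamini-Hochberg adjustment and a threshold of 0.05. DESeq2 1.42.0 and limma 3.58.1 were alternatives. Another scaling by library size moved the median of all 200 kb windows by 0.12 in wild type and 0.19 in cec-4 (log2). Pair values and exact permutations are explained with the results. Replicate numbers pair the samples, since the labels say that a number marks parallel cultures of all strains. As a check, same-numbered libraries of different backgrounds deviated together from their group means (correlation over 0.1) in all 15 comparisons of GFP::Dam and in 12 of 15 of Dam::EMR-1. P-values measure the spread between these pooled cultures.

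The rule for the members uses position alone. That rule, the gene classes and the alternatives were chosen with earlier results of these data known. Named windows are the called 10 kb window of highest and of lowest wild-type ratio per end with all 3 pairs on the same side, the 3 of smallest p per contrast of backgrounds, and the window of the outermost protein-coding gene of each end, named by the gene with most overlap, standard symbols first. A window named "gene-free" holds no protein-coding gene. Gene names and positions came from a RefSeq annotation of the same assembly. No sequence was used. The pipeline was tested on simulated data.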

Additional observations from a re-analysis of the deposited data

How the results depend on the processing

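Levels of the ends and small differences between backgrounds depended on scaling, window size and the definition of an arm. For cec-4 against wild type, the mean ratio of the ends (0.04) became -0.011 in 1 kb bins, -0.070 with TMM scaling, -0.35 centred on the genome mean and -0.51 in the authors' deposited table, and -0.19 to 0.23 without 1 pair (below 0 without wild type replicate 2 or cec-4 replicate 3). Its gap to the rest of the arm (0.0052) became -0.0040 in 1 kb bins, -0.024 in the outer 100 kb and -0.0067 in windows of at least 10 reads on average, and -0.019 to 0.024 without 1 pair. For the combination against mrg-1 RNAi, the mean ratio (-0.02) became 0.019 in the outer 100 kb and 0.070 in the authors' deposited table, and -0.12 to 0.074 without 1 pair. The gap to the arm (-0.01) became 0.0026 in 1 kb bins, 0.022 in the outer 100 kb, 0.13 with arms cut as 1 of 4 lengths and 0.00090 in the authors' deposited table, and -0.026 to 0.0035 without 1 pair. With arms cut that way the gap also became 0.0011 for mrg-1 RNAi and 0.13 for the combination against wild type. The gap to the centres, combination against cec-4 (-0.14), became 0.0084 in 1 kb bins. The wild-type mean was 1.26 in the authors' deposited table. The wild-type gap to the arm was 0.15 with a pseudocount of 5, 0.072 in 1 kb bins, 0.084 in the outer 100 kb, -0.49 against the adjoining 200 kb and -0.21 with arms cut as 1 of 4 lengths. The wild-type gap to the centres was 2.33 with a pseudocount of 5 and 1.39 in 1 kb bins. The sign of the gap between ends and centres, for cec-4 and for the combination against wild type, was the same under every alternative run.

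Ends called in wild type fell from 8 to 5 in the outer 100 kb, where V left had -0.049. For cec-4 against wild type 1 end was called by DESeq2 and by the replicate block (X left), and 0 to 1 without 1 library (IV right, without GFP::Dam cec-4 replicate 2). For the combination against wild type, 0 were called with library size alone, with limma and in the outer 100 kb, and 0 to 1 without 1 library. Besides the calls given with the results, pairing by the replicate block changed none of the calls named here. IV right in wild type, not called, ran from -0.079 (without Dam::EMR-1 wild type replicate 1) to 0.211 without 1 library, and V right lost its call without that same library (0.44). Of the 200 member windows 43.5%, 35.5%, 39.0% and 46.0% were called in wild type, after mrg-1 RNAi, in the cec-4 deletion and in the combination. Of the 10 kb windows tested over the genome, 25.6%, 18.6%, 21.3% and 23.7% were called higher, in that order. Called lower were 28.7%, 21%, 20.1% and 22.9% of them. Of all 2005 member bins of 1 kb, 11.5%, 2.74%, 5.44% and 11.6% were called, but only 1344 of these bins were tested. The turn in wild type from more higher to more lower calls is given in the results. Of the 1 kb bins tested over the genome in wild type, 4.09% were called higher and 21.5% lower, against 6.62% and 10.6% of the members tested. With mrg-1 RNAi the share of windows was 14.0% to 27.5% without 1 library, which leaves 1 library in its group. Causes of these shifts were not tested. The median 1 kb bin of the ends held 0 to 15 reads per library.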
